A study of Drosophila melanogaster with 46 samples.

Results

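The regions described here lie in and around the Drosophila melanogaster gene Notch (N) on chromosome X and the Enhancer of split complex, E(spl)-C, on chromosome arm 3R. They are the accessible regions of the deposited count table that fall wholly inside X:3020000-3075000 (the N window) or 3R:21800000-21880000 (the E(spl) window) on genome build dm3. This gave 44 of 30774 regions, 19 in the N window and 25 in the E(spl) window. Within these windows the regions were taken by position alone, with no measured value. In each window the regions are numbered from left to right, as N region 1 to N region 19 and E(spl) region 1 to E(spl) region 25.

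N encodes a transmembrane receptor that is cleaved when it binds Delta or Serrate on a neighbouring cell, and its intracellular domain then joins Su(H) and Mastermind in the nucleus and activates target genes. The HLH genes of the E(spl)-C are classic targets of this pathway and encode basic helix-loop-helix repressors that act with the co-repressor Groucho, while the BFM genes of the same complex encode Bearded family proteins, which restrain Neuralized and so the signalling of the ligands. In the eye disc the pathway is known for growth at the dorsoventral boundary and for lateral inhibition, by which founder photoreceptors are singled out behind the morphogenetic furrow.

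Accessibility was read out with ATAC-seq, where Tn5 transposase inserts adapters into open chromatin, in hand-dissected eye-antennal discs, the larval tissue that gives rise to the eye and antenna. The 31 libraries analysed here came from wandering larvae of the third instar. They belong to 23 inbred DGRP lines (Drosophila Genetic Reference Panel), which were bred from flies caught in the wild. Their labels give the line as the only genotype, with no transgene, and all larvae were raised on standard food at 1 temperature. Each of 8 lines had 2 libraries and each of 15 lines had 1. In the titles of 15 libraries the suffix IR stands after the line name, with no explanation in the labels, and 16 titles lack it. In the 8 lines with 2 libraries, replicate 1 has no suffix and replicate 2 has it. The stated aim was to map chromatin accessibility QTLs, variants in the DNA that go with the accessibility of a region.

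The shallowest library held 1110755 counts, the deepest 12758783 and the median one 6283136. A region on X had on average 0.708 to 1.08 times the count of a region on the large autosomal arms, with a median ratio of 0.955, and the labels do not name the sex of the larvae. Regions are named by position because no annotation of dm3 was used. The tissue label was therefore not checked against marker genes, and regions of other genes of the Notch pathway were not picked out.

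The RefSeq gene table of another assembly, Release 6, was read for names and order alone, and all 8 genes that the choice of windows was made for were found in it. Along 3R, 13 protein-coding genes run from E(spl)mdelta-HLH to gro, which encodes Groucho. Of these, 7 are HLH genes (E(spl)mdelta-HLH, E(spl)mgamma-HLH, E(spl)mbeta-HLH, E(spl)m3-HLH, E(spl)m5-HLH, E(spl)m7-HLH and E(spl)m8-HLH) and 4 are BFM genes (E(spl)malpha-BFM, E(spl)m2-BFM, E(spl)m4-BFM and E(spl)m6-BFM). The remaining member of the run besides gro is Kaz-m1. On X, the order is CG4116, N, CG18508, Fcp3C, CG3939 and dnc. No region was assigned to any of these genes.

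The first question was how accessible each locus was and how the signal was spread along it. Levels are given as CPM per kb, which is the count after scaling of the libraries by the TMM method (CPM) divided by region length. The median region of the E(spl) window stood at 158 CPM per kb and that of the N window at 112, against 30.4 over all 30774 regions, 30.1 over those on 3R and 29.2 over those on X. The discs were measured in bulk, so that fewer cells with an open region and less accessibility per cell cannot be told apart.

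The N window held regions over 44.3 kb, from 3028613 to 3072868. Its regions were 246 to 1723 bp long and summed to 11085 bp, and 1802 to 20977 counts fell in them per library. N region 16 (X:3055975-3057254) was the most accessible, with 358 ± 69.3 CPM per kb (SD, n = 31 libraries), from 228 to 498. It took 29.9% of the counts of the window and ranked 52 among all regions per unit length. It lay 1854 bp from N region 15 on its left and 9716 bp from N region 17 on its right, the widest gap of the window.

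A second block of strong signal lay at the left end of the window. N region 3 (X:3030334-3030773) had 198 ± 47.8 CPM per kb, N region 1 (X:3028613-3029425) had 195 ± 37.3, N region 5 (X:3033111-3033574) had 185 ± 49.2 and N region 6 (X:3033755-3034430) had 176 ± 43.2 (SD, n = 31 each). These 4 levels differed from each other by less than their spread over libraries. The 4 regions that drew the most counts held 56.6% of the counts of the window. At the other end of the scale, N region 19 (X:3072534-3072868) had 18.1 ± 9.72 CPM per kb and N region 13 (X:3048939-3049191) had 35.2 ± 14.9. N region 19 was lower per kb than the median region of the whole table, and N region 13 lay close to that median.

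The E(spl) window held regions over 70.3 kb, from 21808437 to 21878731. They were 313 to 1465 bp long and summed to 18496 bp, and 3649 to 52685 counts fell in them per library. E(spl) region 6 (3R:21831628-21832557) was the most accessible, with 503 ± 81.3 CPM per kb (SD, n = 31), from 351 to 682. It ranked 8 among all 30774 regions per unit length.

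Below it came a tight group. E(spl) region 11 (3R:21843712-21844338) had 357 ± 78.9 CPM per kb, E(spl) region 5 (3R:21828028-21829321) had 352 ± 75.6, E(spl) region 7 (3R:21833959-21835365) had 318 ± 63.8 and E(spl) region 12 (3R:21846373-21847014) had 317 ± 60.3 (SD, n = 31 each). Neighbours in this order differed by less than their spread. Of the counts of this locus, the 4 regions with the most held 43.9% and the strongest held 12.0%, in a window of more regions than that of N. The lowest levels were those of E(spl) region 24 (3R:21877774-21878204), with 49.7 ± 14.0 CPM per kb, and E(spl) region 16 (3R:21853566-21854084), with 52.0 ± 16.8. Both were above the median of all regions.

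**Figure D1:**
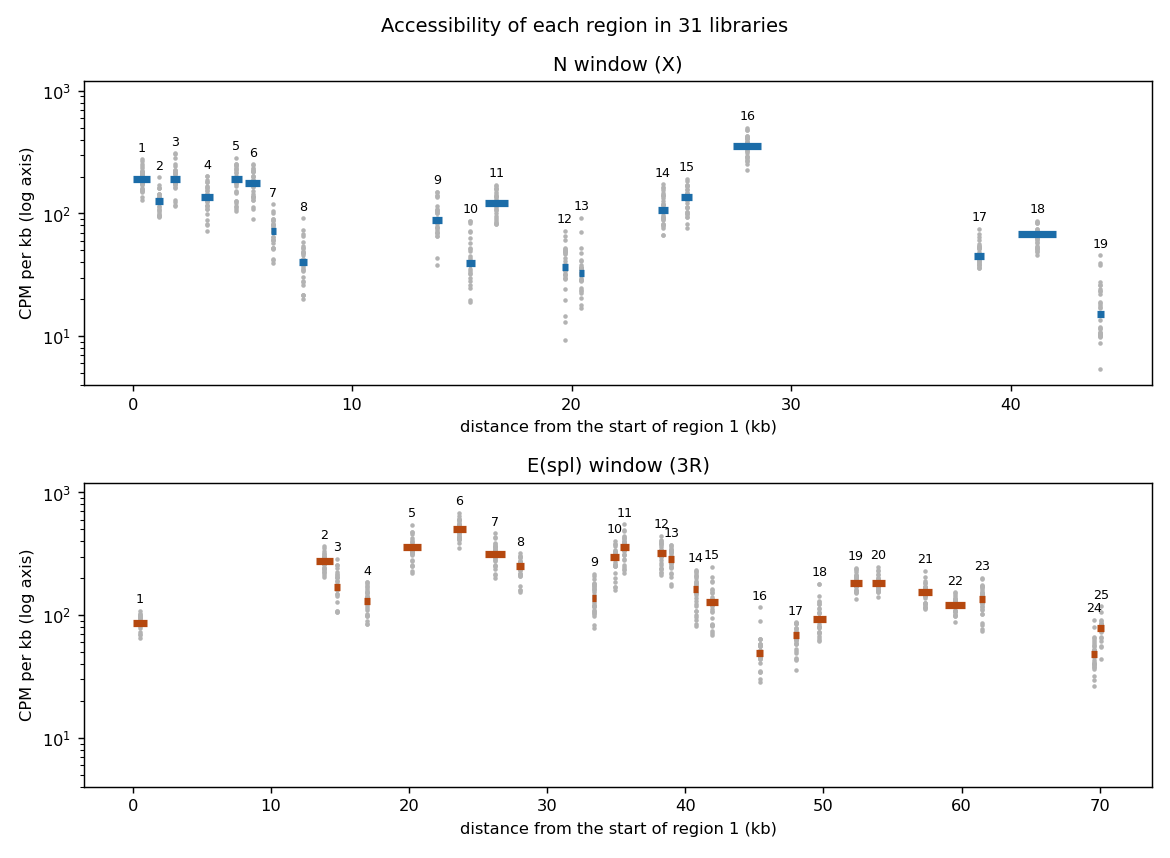
CPM per kb (log axis) of each region against its distance in kb from the start of region 1 of its window, with N on X in the upper panel and E(spl) on 3R in the lower. Grey points are the 31 libraries and coloured bars give the median and the extent of each region; N region 16 and E(spl) region 6 stand highest in their windows.

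The edges of the windows fell at different places relative to the signal. The nearest regions outside the N window had 17.96 CPM per kb on the left (X:3018568-3018898) and 18.03 on the right (X:3079571-3079970), beside 195 in the first region inside and 18.1 in the last. Outside the E(spl) window the nearest region on the left (3R:21796115-21796340) had 12.5 CPM per kb and the nearest on the right (3R:21880838-21881356) had 156, beside 87.9 in the first region inside and 78.5 in the last. An accessible region thus lay just beyond the right edge of the E(spl) window, across a gap between regions.

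Set side by side, the E(spl) window was the more accessible per kb in each of the 31 libraries. The N window ranged from 92.3 CPM per kb in DGRP_25186 to 187 in replicate 1 of DGRP_28123, with a median of 137. The E(spl) window ranged from 150 in replicate 1 of DGRP_28265 to 268 in replicate 1 of DGRP_28262, with a median of 214. The ratio of E(spl) to N within a library had a median of 1.54, with the lowest value of 1.14 in replicate 1 of DGRP_28123 and the highest of 2.18 in DGRP_25186. On the log2 scale the median difference was 0.62, and it was 0.50, from 0.15 to 0.72, when each window was scaled to the counts per kb of its own chromosome arm.

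Part of the spread of the N window went with the share of counts on X. The SD of its log2 level over libraries was 0.26 as CPM per kb. It was 0.20 as a share of all counts and 0.13 as a share of those on X, both without TMM scaling. For the E(spl) window the same SDs were 0.21, 0.15 and 0.15, with 3R in place of X. The N window took 0.695% to 1.14% of the counts on X and the E(spl) window 1.26% to 1.87% of the counts on 3R. The 2 libraries with the lowest X to autosome ratios, replicate 1 of DGRP_28262 (0.708) and DGRP_25186 (0.767), also had the highest ratios of E(spl) to N.

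Differences between lines were the second comparison, since the study looked for loci that vary with the DNA of the strain. None of the 44 regions differed between lines at an adjusted p under 0.05 (edgeR quasi-likelihood F-test, Benjamini-Hochberg adjustment over 30773 tested regions). Over all regions 0.0942% were called. At an unadjusted p under 0.05 there were 3 regions, all in the N window, and none of the 25 in the E(spl) window, where 7.68% of all regions passed. DESeq2 called 2 regions, both in the N window, at a background of 5.51%, and limma voom called 0 at a background of 0.0325%. With a covariate for the first principal component of the libraries, 6 regions of the N window passed and none of the E(spl) window, at a background of 10.4%.

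The spread of the line means is given as a description. The median SD of line means in log2 CPM was 0.34 over the N window and 0.26 over the E(spl) window, against 0.40 over all tested regions. These lists were not matched for level, and their median log2 CPM was 5.66, 6.92 and 3.74 in the same order. The part of level in the SDs was not tested. The SD within lines was taken from the 2 libraries of each of 8 lines, after removing their mean difference with the suffix. Its median was 0.32 in the N window, 0.26 in the E(spl) window and 0.42 over all. The line means were not adjusted for the suffix. The SD of line means was above the SD within lines in 11 of 19 N regions and 10 of 25 E(spl) regions, and in 39.1% of all regions. A line mean of 1 library carries the whole spread of that library, so the SD of line means does not measure the strain alone.

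N region 10 (X:3043811-3044202) had levels from 2.95 to 5.11 log2 CPM with a median of 3.97. The libraries of DGRP_28275 were high at 5.10 and 5.06, and the single library of DGRP_25187 was high at 5.11. Those of DGRP_55031 were the lowest 2 of all at 3.01 and 2.95. In these lines the 2 libraries lay close together, but in DGRP_28123 they were apart, at 4.81 and 3.92. The SD of line means was 0.54 and that within lines 0.29. The region had an adjusted p of 0.390 between lines (edgeR), with values from 0.00407 to 0.836 under the alternatives.

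N region 4 (X:3031745-3032290) lay in the strong left block, with 136 ± 34.4 CPM per kb, and varied from 5.32 to 6.79 log2 CPM with a median of 6.21. It was low in DGRP_28243 at 5.32 and in DGRP_28262 at 5.60 and 5.77. It was high in DGRP_25185 and DGRP_28202, both at 6.79, and in DGRP_29652 at 6.69 and 6.63. The 2 libraries of DGRP_28262 did not overlap with those of DGRP_29652, and both lay below every library of the other lines except those of DGRP_28243, DGRP_28206 and DGRP_25186. The adjusted p between lines was 0.417 (edgeR) and 0.00465 with DESeq2, and the alternatives spanned 0.00465 to 0.9999.

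N region 19, the region of lowest signal, had the smallest unadjusted p between lines, 0.00895, and an adjusted p of 0.323 (edgeR; 0.0214 to 0.699 under the alternatives). Its level ran from 1.09 log2 CPM in DGRP_29651 to 3.96 in DGRP_25193. Both libraries of DGRP_28123 were high, at 3.76 and 3.69, and no library of any line but DGRP_25193 reached them. Only 4 to 121 counts per library stood behind these values, so counting error is large at the low end.

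The other regions of wide spread in the N window were N region 12 (X:3048172-3048428), with an SD of line means of 0.60, and N region 13, with 0.51. N region 12 ran from 1.43 log2 CPM in DGRP_25186 to 4.23 in DGRP_28243, but the 2 libraries of DGRP_28260 were at 3.98 and 1.87, and its SD within lines of 0.61 was as large as that between lines. N region 13 was highest in DGRP_25199 at 4.56 and DGRP_25194 at 4.18, each with 1 library, and lowest in DGRP_25186 at 2.19. The steadiest regions of the window were N region 18 (X:3068975-3070698) and N region 1, with SDs of line means of 0.23 and 0.25.

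**Figure D2:**
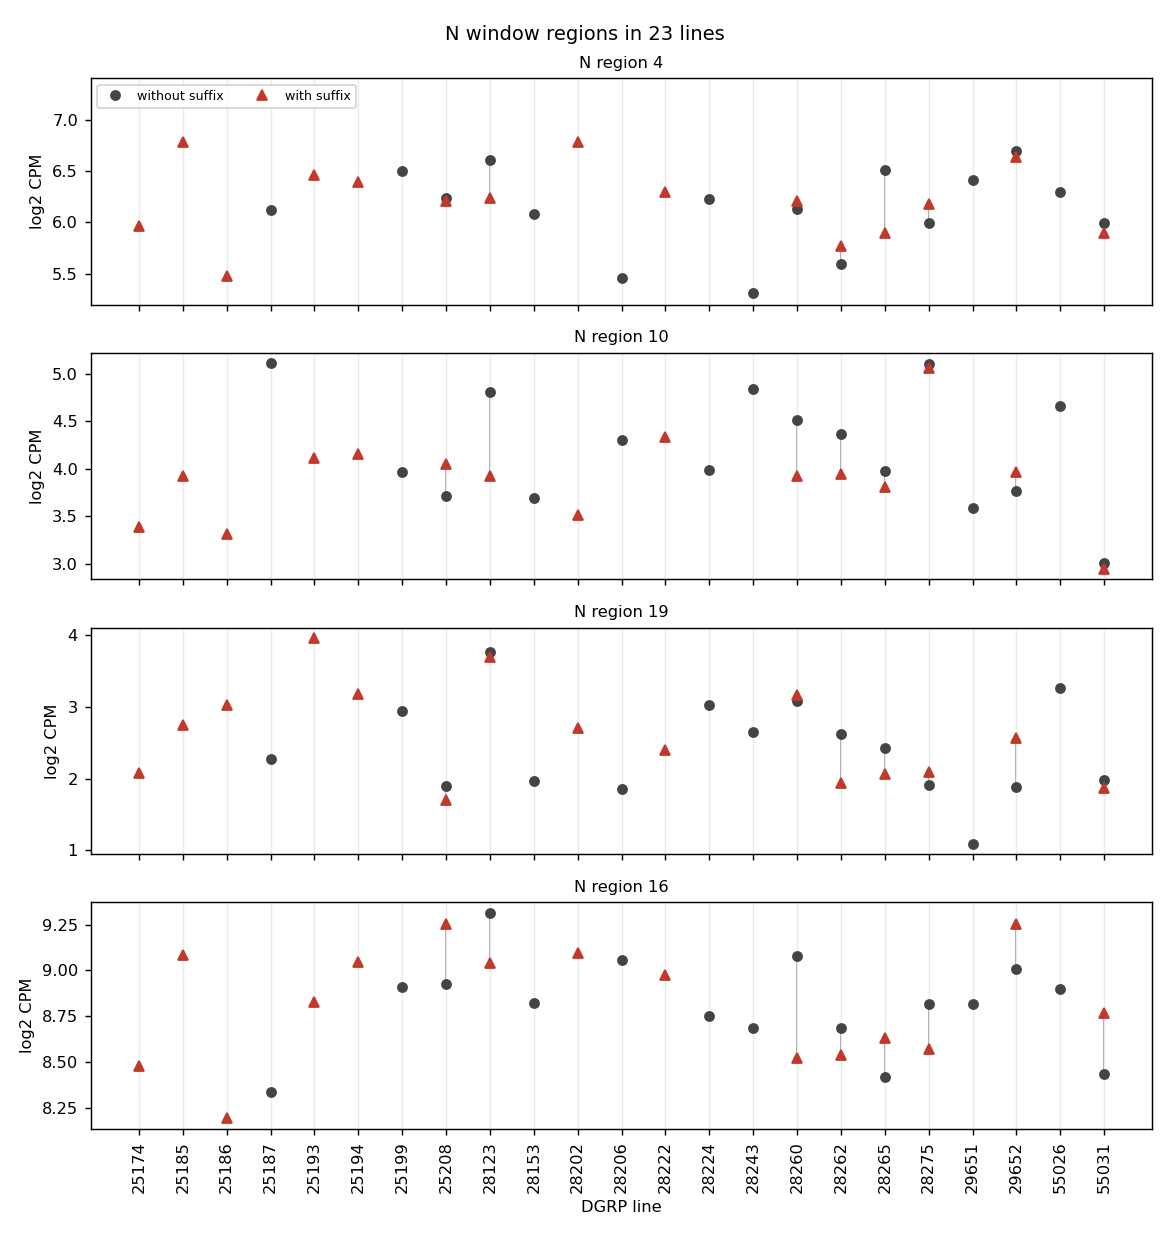
Log2 CPM of N regions 4, 10, 19 and 16 in each of the 23 DGRP lines, with circles for libraries without the suffix, triangles for those with it and a grey line joining the 2 libraries of a line. In N region 10 the 2 libraries of DGRP_28275 lie together at the top and those of DGRP_55031 together at the bottom, while N region 16 is shown as the most accessible region of the window.

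Line means in the E(spl) window, where the median level was higher, varied less. The widest spreads were those of E(spl) region 14 (3R:21849010-21849341) and E(spl) region 15 (3R:21849951-21850785), both with an SD of line means of 0.38, and E(spl) region 16, with 0.36. The SDs within lines were 0.42, 0.38 and 0.43, so the line means spread by about as much as, or less than, the libraries of 1 line did. The steadiest were E(spl) region 22 (3R:21867239-21868704) and E(spl) region 20 (3R:21861922-21862855), with 0.14 and 0.15. The smallest unadjusted p values between lines were those of E(spl) region 2 (3R:21821702-21822937), E(spl) region 24 and E(spl) region 17 (3R:21856215-21856635), at 0.200, 0.202 and 0.244, with adjusted p values (edgeR) of 0.959, 0.961 and 0.989.

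The same fit was used to contrast every line with the average of the remaining 22, which gave 437 tests in the N window and 575 in the E(spl) window. None had an adjusted p under 0.05 (edgeR), at a background of 0.139% over all regions and lines. At an unadjusted p under 0.05 there were 38 in the N window and 18 in the E(spl) window, against 5.19% of all tests. The smallest unadjusted p was that of N region 10 in DGRP_28275, where the log2 fold change was 1.08 and the adjusted p 0.193 (0.00147 to 0.0496 in the 3 alternatives that called it). Those alternatives were the first component as a covariate, with 11 calls at a background of 1.14%, total counts alone, with 1 call at 0.163%, and a minimum mean count of 50, with 1 call at 0.127%. Next came N region 19 in DGRP_28123, with a log2 fold change of 1.29 and an adjusted p of 0.0621, and N region 19 in DGRP_25193, with 1.56 and 0.396. In the E(spl) window the smallest was E(spl) region 24 in DGRP_25208, whose libraries were at 5.11 and 5.31 log2 CPM against a median of 4.40 over all libraries, with a log2 fold change of 0.87 and an adjusted p of 0.200.

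A large part of the variation among the 31 libraries was shared by many regions and did not follow the lines. The first principal component of log2 CPM, computed from 15345 regions above the median level with the 44 regions left out, held 40% of the variance. Scores ran from -0.56 in DGRP_29651 to 0.30 in replicate 2 of DGRP_25208, while replicate 1 of the same line had -0.43. The labels do not say what sets the score, and it is used here as a description with no test. For each region the fitted change in log2 CPM from the lowest to the highest score was computed. Over all regions the median change was 0.25, while it was 0.50 over the N window and 0.44 over the E(spl) window. The median log2 CPM was 3.74 over all tested regions, 5.66 over the N window and 6.92 over the E(spl) window. Neither this background nor those below were matched for level.

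The fitted level was higher where the score was higher in 15 of 19 N regions and 22 of 25 E(spl) regions, at a background of 64.1% of all regions. A change of at least 0.5 was found for 9 of 19 N regions and 12 of 25 E(spl) regions, at a background of 33.7% of all regions. In the E(spl) window the largest were E(spl) region 10 (3R:21842990-21843639) at 0.96, E(spl) region 3 (3R:21823002-21823457) at 0.95 and E(spl) region 23 (3R:21869685-21870135) at 0.94. From E(spl) region 7 to E(spl) region 15 the change was at least 0.66 in every region over all 31 libraries. In the 15 libraries with the suffix alone the run was broken. The change was -0.03 in E(spl) region 14, 0.31 in E(spl) region 12, 0.41 in E(spl) region 13 and 0.42 in E(spl) region 11. It was 0.48 in E(spl) region 8, 0.51 in E(spl) region 7, 0.60 in E(spl) region 15 and 1.07 in E(spl) region 9. There E(spl) region 23 had 0.43, E(spl) region 10 had 0.70 and E(spl) region 3 had 0.94. In the N window N region 19 had 0.93 and N region 14 (X:3052548-3052992) had 0.83. The change of N region 19 turned to -0.28 in the 15 libraries with the suffix alone, where that of N region 14 was 1.35, and N region 19 had 1.33 in the 16 without it.

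At the library with the lowest score, DGRP_29651, the E(spl) window stood at 166 CPM per kb, and at the one with the highest score, replicate 2 of DGRP_25208, it stood at 238. Within DGRP_25208 it was 169 in replicate 1. DGRP_29651 was the line with the lowest mean in E(spl) regions 2, 3, 5, 7, 8, 9, 10, 11, 12, 13, 15 and 23. How often it was the lowest over all regions was not counted, so this list is not shown to be particular to the window. In E(spl) region 6, the most accessible, the lowest mean was that of DGRP_28265. DGRP_29651 has 1 library, so a property of the line and a property of that library cannot be told apart.

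Some regions were lower where the score was higher, against their neighbours. A change of -0.5 or less was found for E(spl) region 18 (3R:21857702-21858585) at -1.13 and N region 8 (X:3036207-3036566) at -0.90, at a background of 26.5% of all regions. Under the other settings they ranged from -1.33 to -0.97 and from -1.19 to -0.57. E(spl) region 18 was highest in replicate 1 of DGRP_55031 at 7.32 log2 CPM and in DGRP_29651 at 7.31, and lowest in replicate 2 of DGRP_25208 at 5.77. Replicate 2 minus replicate 1 was -1.45 in DGRP_55031, -1.01 in DGRP_25208, -0.97 in DGRP_29652 and -0.87 in DGRP_28265, and it was 0.72 in DGRP_28260. These 5 lines are those in which the scores of the 2 libraries were furthest apart.

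Pearson correlations of log2 CPM over the 31 libraries describe the same layout, and the points share their libraries and scaling. Among pairs of E(spl) regions the median r was 0.34, and between neighbours it was 0.65. The adjoining E(spl) regions 5 and 6 had r = 0.90, regions 6 and 7 had r = 0.90, and regions 12 and 13 had r = 0.90. E(spl) region 18 had a median r of -0.38 with the rest of its window, and r = -0.16 and -0.25 with its left and right neighbours. Among pairs of N regions the median r was 0.35, and 0.42 between neighbours. N region 5 and N region 6 were the most alike neighbours, with r = 0.88. Between an N and an E(spl) region the median r was 0.22.

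**Figure D3:**
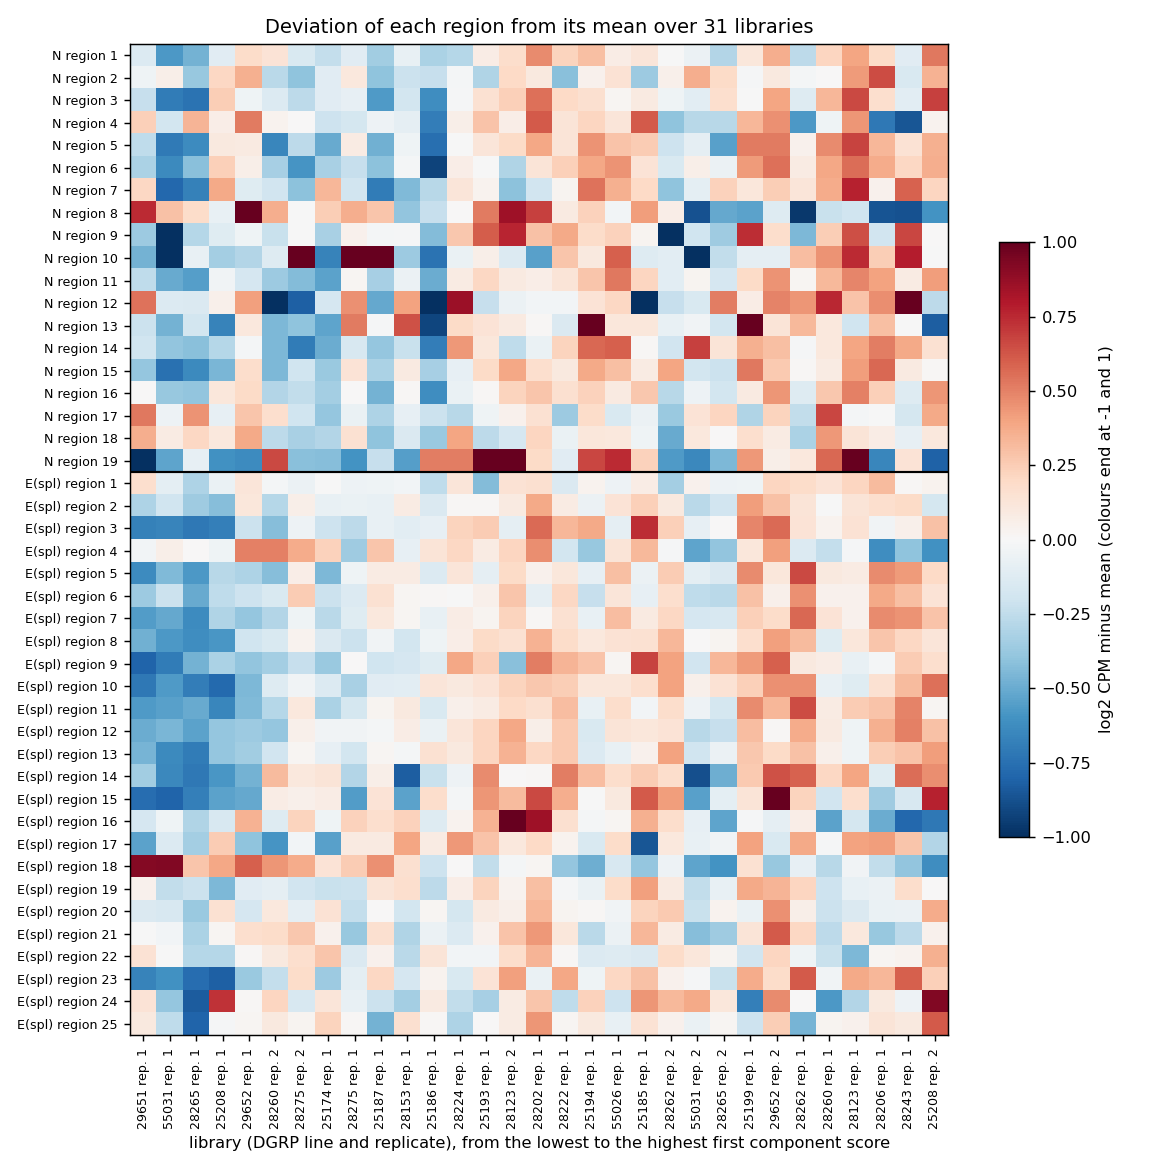
Log2 CPM of each of the 44 regions minus its mean over 31 libraries (colour scale ending at -1 and 1), with regions as rows in order of position and libraries as columns ordered by first component score. E(spl) regions 7 to 15 turn from blue to red from left to right, E(spl) region 18 turns the other way, and N region 10 is dark red in both libraries of DGRP_28275.

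**Figure D4:**
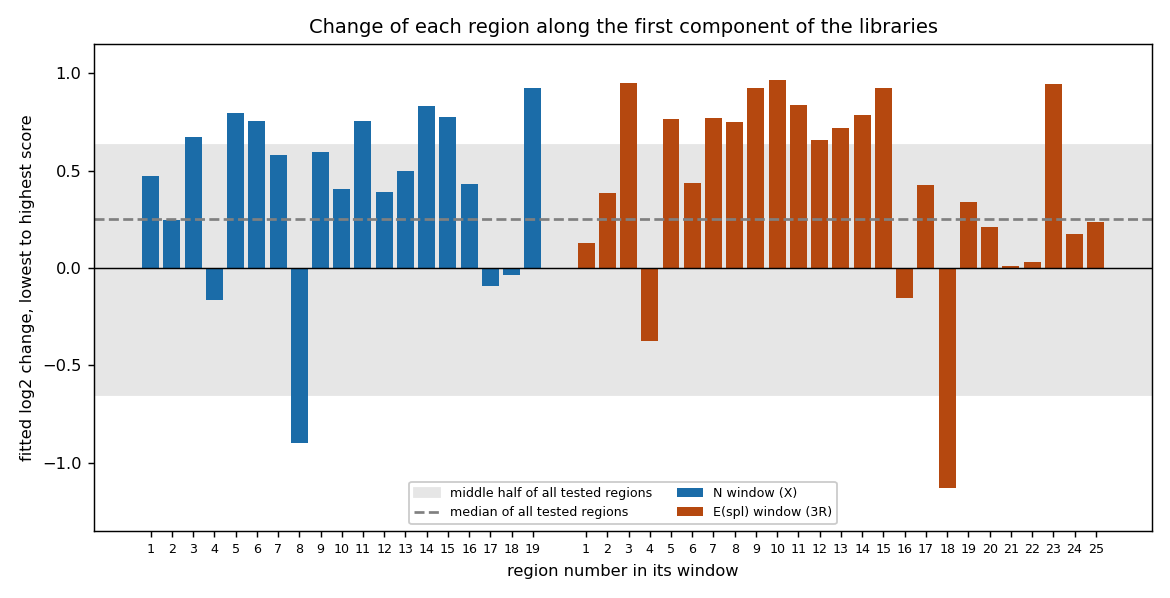
Fitted change in log2 CPM from the lowest to the highest first component score for each of the 19 N regions (blue) and 25 E(spl) regions (orange). The dashed line is the median of all tested regions, 0.25, and the grey band their middle 50%; E(spl) region 18 at -1.13 and N region 8 at -0.90 are the lowest bars.

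Regions on other chromosome arms were ranked by the correlation of their log2 CPM with the summed level of each window over the 31 libraries. The region most like the E(spl) window was 2R:18578051-18578744 with r = 0.94, followed by 3L:9012230-9012876 and 2R:8673727-8674556, both with r = 0.92, and by 3L:19549705-19550402 and 2L:12013277-12014268, both with r = 0.91. All 5 had a change along the first component between 0.85 and 0.93. The N window had less close counterparts, with r = 0.79 for 3L:1098473-1099052, 0.77 for 2L:18326993-18328139, 0.76 for 2L:5144654-5146484 and 2L:17267848-17268712, and 0.75 for 3R:26275490-26276447. As these were the highest of many correlations, they are a description of likeness alone.

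The last comparison set the library with the suffix against the one without it in the 8 lines that had both. No region of either window differed at an adjusted p under 0.05 (edgeR with the line as a block, 30710 tested regions), where 0.0293% of all regions were called. At an unadjusted p under 0.05, 8 of 25 E(spl) regions were higher with the suffix, against 9.57% of all regions, and 1 of 19 N regions was lower, against 7.46%. DESeq2 called 3 E(spl) regions, at a background of 3.48%, and limma voom called 0, at a background of 0.0293%. With the first component as a covariate 5 regions passed, at a background of 4.39%, and with all 31 libraries and no block 6 passed, at a background of 12%. The median log2 fold change was 0.17 over the E(spl) regions and -0.08 over the N regions. When each window was scaled by TMM within its own arm the E(spl) median was 0.17 and the N median turned to 0.08. Adding the first component to the fit gave medians of 0.09 and -0.18.

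Higher values with the suffix in all 8 lines were found for 3 of 25 E(spl) regions and 0 of 19 N regions, while 5.33% of regions on 3R, 1.23% of those on X and 4.18% of all regions had this property. In at least 7 of the 8 lines it held for 8 of 25 E(spl) regions, beside 13.8% on 3R. E(spl) region 15 ranged from 5.85 to 6.88 log2 CPM in the 16 libraries without the suffix and from 6.12 to 7.69 in the 15 with it, so that the groups overlapped. Its differences within the 8 lines were 1.55 in DGRP_29652, 1.30 in DGRP_25208, 0.61 in DGRP_28275, 0.59 in DGRP_28265 and 0.15 to 0.26 in the other lines. The log2 fold change was 0.58 with an adjusted p of 0.154 (edgeR; 0.00423 to 0.367 under the alternatives).

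E(spl) region 22 moved little along the first component (0.03) and was also higher with the suffix in 8 of 8 lines, by 0.12 in DGRP_55031 to 0.64 in DGRP_25208. The log2 fold change was 0.31 with an adjusted p of 0.171 (edgeR; 0.0136 to 0.367 under the alternatives). E(spl) region 25 (3R:21878261-21878731), at the right edge of the window, was the third region higher in all 8 lines, with a log2 fold change of 0.28 and an adjusted p of 0.275 (edgeR). E(spl) region 10 was higher in 6 of 8 lines, with a log2 fold change of 0.49 and an adjusted p of 0.168 (edgeR; 0.0431 to 0.398 under the alternatives). Its log2 fold change was 0.32 after adding the first component to the fit and 0.30 in all 31 libraries with no block.

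In the N window, the longest region, N region 18, had a lower level in the library with the suffix in 7 of 8 lines. Among these 7 the difference reached -0.70 in DGRP_28260 but was only -0.0003 in DGRP_25208. In DGRP_55031 it was 0.02. Values lower in at least 7 of 8 lines were found for 1 of 19 N regions, 10.2% of regions on X and 5.37% of all regions. The log2 fold change was -0.30 with an adjusted p of 0.173 (edgeR; 0.0322 to 0.418 under the alternatives), and it was -0.14 when scaled to X counts alone. N region 12 had a log2 fold change of -0.53 with an adjusted p of 0.344 (edgeR), with a difference of -2.11 in DGRP_28260 and of 0.66 in DGRP_28265. Its log2 fold change was -0.28 without either library of DGRP_28260, and with the component in the fit it was -0.83 with an adjusted p of 0.0278 (0.0278 to 0.529 over the alternatives). N region 10 had -0.25 with an adjusted p of 0.390 (edgeR), and -0.08 when scaled to X counts alone and -0.16 without either library of DGRP_28123.

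Over whole windows the E(spl) level was higher with the suffix in 6 of 8 lines, with a mean log2 difference of 0.18 ± 0.087 (SE, n = 8 lines), from -0.18 in DGRP_28262 to 0.49 in DGRP_25208. As a share of the counts on 3R, without TMM scaling, it was 0.12 ± 0.047. The N level was higher in 4 of 8 lines, with a mean of -0.0098 ± 0.118. As a share of the counts on X the mean was 0.061 ± 0.078. The first component score was higher with the suffix in 4 of 8 lines, with a mean difference of 0.24 ± 0.18 (SE, n = 8 lines). Its rises ran from 0.62 to 0.74 and its falls from -0.06 to -0.55. The X to autosome ratio was lower in 5 of 8, with a mean difference of -0.086 ± 0.055. The part of the score and of this ratio in the differences between windows was not tested.

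**Figure D5:**
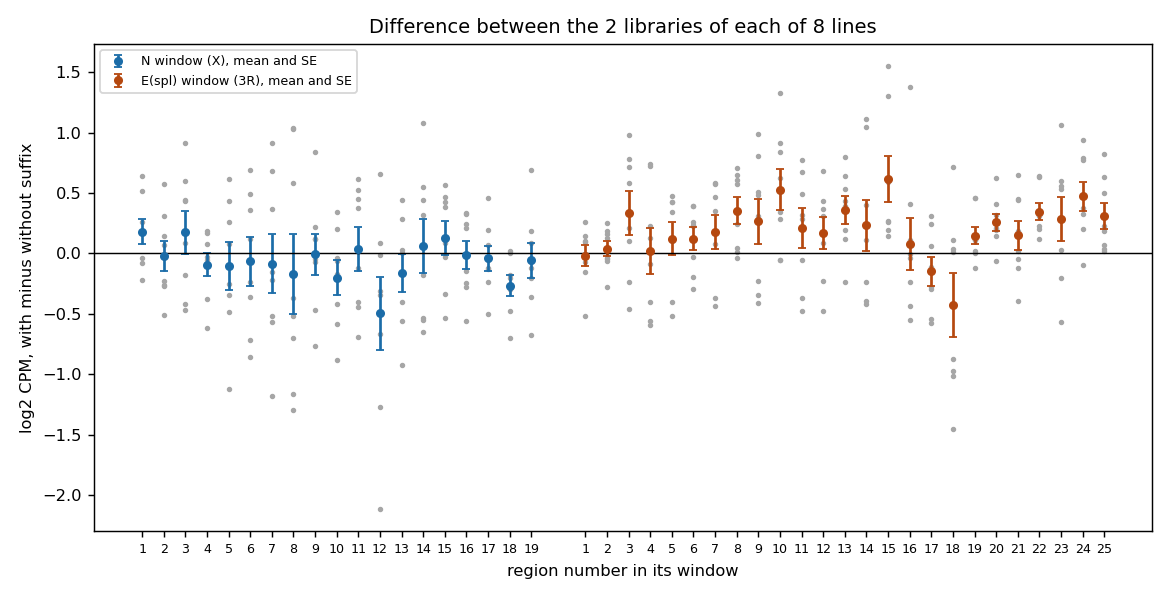
Log2 CPM of the library with the suffix minus that without it, for each region of the N (blue) and E(spl) (orange) windows in the 8 lines with 2 libraries (grey points), with the mean and SE over lines. All 8 points of E(spl) regions 15, 22 and 25 lie above 0, and 7 of 8 points of N region 18 lie at or below 0.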

How the data were processed

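The values the authors deposited are raw counts, 1 column for each library, for 30774 merged peak regions on dm3. DESeq2, featureCounts, MACS2 and Bowtie2 appear in the submitters' processing notes without versions. How duplicate reads and the Tn5 cut offset were handled, which can move counts at region edges, was not given in the sources used here. Of 46 samples, the 15 from reporter insertions, Grainyhead ChIPmentation and sorted cells were not used here. Coordinates are as deposited and length is end minus start.

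The analysis used edgeR 4.0.16 (R 4.3.3) with TMM scaling, robust quasi-likelihood F-tests and Benjamini-Hochberg adjustment over all tested regions at 0.05. Regions were kept if 2 or more libraries reached the CPM that 10 counts give in a library of median size, and all 44 were. Lines were tested together in 31 libraries with a term for the suffix. This leaves 7 residual degrees of freedom, and lines with a single library take their spread from the rest. The suffix was tested in 16 libraries with the line as a block. Log2 CPM carries a prior count of 2. The alternative tests came from limma 3.58.1 and DESeq2 1.42.0, and the fits were tested on simulated data.

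The shared line name pairs the 2 libraries of a line. Their counts over the 44 regions differed beyond sampling noise (chi-square per degree of freedom 6.87 to 31.0). Whether they came from separate dissections is not given, so p-values measure the spread between libraries, which may be technical. The first component computed from 2L, 2R, 3L and 4 only gave scores that correlated at 0.9993 with those used.

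Named regions are, per window, the 5 highest and 2 lowest per kb, the 3 largest and 2 smallest SDs of line means, the 3 smallest p values between lines and for the suffix, and the 5 most alike regions on other arms. Regions named for their change along the first component or their correlations, and those high or low in given lines, were picked after their values were seen. Regions were taken by position within the windows, but the windows, lists and settings were chosen with earlier results of these data known.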

Additional observations from a re-analysis of the deposited data

Results flagged for a closer look

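In the 8 lines with 2 libraries, N region 18 (X:3068975-3070698) had a library that stood apart from the other 7 of its kind. Replicate 1 of DGRP_28262 was at 6.48 log2 CPM, while the next lowest library without the suffix was at 6.88 and the median of the 8 was 6.94. Its pair with the suffix was at 6.30, the lowest of all 31 libraries. Replicate 1 of DGRP_28262 also had the lowest X to autosome ratio, 0.708, whose part in this value was not tested. It was the 1 set with a value apart of 56 sets of 8 values, and chance flags about 1 in 20.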

How the results depend on the processing

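The counts of called regions depended on the tool and on the first component. Between lines the count of 0 became 2 with DESeq2 (N regions 4 and 10) and 6, all in the N window, with the first component as a covariate, which calls 10.4% of all regions. For the suffix it became 3 with DESeq2 (E(spl) regions 10, 15 and 22) and 5 with the component, where 4.39% of all regions are called (N regions 5, 12 and 18 lower, E(spl) regions 15 and 22 higher). For 1 line against the rest it became 11 with the component (9 in the N window, 1.14% of all tests), and 1 with total counts alone or a mean count of 50 or more, N region 10 in DGRP_28275 each time. The cause was not tested.

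Without the replicate block the suffix count was 0 in the same 16 libraries, where 0.462% of all regions are called. It was 6 in all 31, where 12% of all regions are called and lines and suffix are mixed. The paired fit itself had 0, at a background of 0.0293%. Without the suffix term the counts between lines and for 1 line were 0 each, at backgrounds of 0.224% and 0.149%. Each of the 16 libraries of the 8 paired lines was left out in turn (single-library lines were all kept). Of the 44 regions, 0 were called each time, between lines and for the suffix. Over all tested regions these fits called only 0 to 41 between lines and 1 to 3 for the suffix. With so few calls, 0 among the 44 says little about them. The log2 ratio of the windows was 0.61 to 0.62 in these runs. That ratio was 0.84 without the strongest region of each window and 0.76 as a mean over regions. Over the alternatives added later, 17 to 25 regions were higher by 0.5 or more along the component and 2 to 3 were lower. Of the 44 changes along the component, 10 took the other sign in at least 1 alternative, 8 of them in the 15 libraries with the suffix alone. The suffix changes of N regions 10, 12 and 18 and E(spl) regions 10, 15 and 22 kept their sign in every alternative run. These regions were picked for the smallest suffix p values (edgeR), and the alternatives reuse the same libraries. A kept sign was therefore likely beforehand and is no separate support. Depth limits N region 19, with 4 to 121 counts per library, and replicate 1 of DGRP_25208, the shallowest library.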
